A study of Mus musculus with 12 samples.

Results

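The AMPA receptor genes described here are the 4 genes of the pore-forming GluA subunits (Gria1, Gria2, Gria3 and Gria4) and 6 genes of proteins that associate with the receptor (Cacng2, Cacng3, Cacng8, Cnih2, Cnih3 and Gsg1l). They were chosen by symbol, and all 10 were found among the 19268 genes of the table. AMPA receptors are tetrameric glutamate-gated channels that carry most of the fast excitatory transmission in the brain. GluA2, when its messenger RNA has been edited, makes the channel impermeable to calcium, so the proportion of GluA2 among the subunits is a well-known property of a synapse. Cacng2 (stargazin), Cacng3 and Cacng8 encode transmembrane AMPA receptor regulatory proteins (TARPs), which bring the receptor to the membrane and tether it to PSD-95, the cornichons encoded by Cnih2 and Cnih3 help it leave the endoplasmic reticulum and slow its closing, and Gsg1l encodes a claudin-like subunit that dampens receptor currents.

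The libraries held RNA of whole forebrain, dissected without the olfactory bulb, and all mice were C57BL/6J males. Homozygous Shank3 mutants that lack exons 14–16 (KO) were compared with wild-type animals (WT) in juveniles of postnatal day 25 (P25) and in adults of postnatal day 60 (P60), with 3 mice in each of the groups P25-WT, P25-KO, P60-WT and P60-KO. Shank3 encodes a scaffold protein of the excitatory postsynapse, the structure that holds AMPA receptors opposite the release site. The deletion is constitutive, and the KO animals were reared by mothers together with wild-type and heterozygous pups. Levels are normalized counts, that is, read counts estimated by the authors and scaled between libraries, and a gene was called higher or lower where its adjusted p in limma, a linear model fitted across all genes, was under 0.05.

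Shank3 itself was checked first, and its normalized counts were 10401, 11683 and 10254 in P25-WT against 4891, 4901 and 5729 in P25-KO, and 10310, 8936 and 10142 in P60-WT against 5186, 4535 and 5021 in P60-KO. Every KO library was thus below every WT library at both ages, with a log2 fold change of -1.06 ± 0.09 (SE, n = 3 per group) at P25 (limma adjusted p = 0.0134) and -0.99 ± 0.07 at P60 (limma adjusted p = 0.00220). In 5 alternatives no gene was called at P25, Shank3 included: without the intensity trend (limma's fit of the spread to the mean level), with the replicate number as a block, with the trend on transcript length and GC content removed, and without P25-KO replicate 1 or 2. At P60 this was so without the intensity trend. This value covers the whole gene and not the deleted exons, so it does not tell a homozygous from a heterozygous animal. Every marker of glutamatergic neurons in a list of 8 was detected in all 12 libraries, as the tissue label requires. Some libraries stood apart from their group. The summed normalized counts of 75 ribosomal protein genes reached 402944 in P25-WT replicate 2 and ran from 229410 to 310895 over the other libraries. In addition, some of 8 listed markers of cerebellar granule cells, cells that a forebrain sample should lack, were raised in P60-WT replicate 2 (Cbln3 at 624, Fat2 at 495 and Gabra6 at 221 normalized counts) and, to a lesser degree, in P60-KO replicate 1 (138, 161 and 68.5). In the other 10 libraries Cbln3 was between 9.42 and 27.5, Fat2 between 6.91 and 63.0 and Gabra6 between 0 and 4.40. These 3 markers were named after their values were seen. The rest of the list was detected in every library, so those genes are not absent from forebrain. Of these, Cbln1 (964), Zic1 (1871), Neurod1 (477) and Barhl1 (72.3) were highest in P60-WT replicate 2, whereas Etv1 (2946) was not. In P60-KO replicate 1, Neurod1 (376) was below that library only, Cbln1 (689), Zic1 (1531) and Barhl1 (52.8) were not raised, and Etv1 (2812) was the lowest of its group. The calls between the ages over both genotypes are also given without P60-WT replicate 2 and P60-KO replicate 1 together, and separately without P25-WT replicate 2.

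All 10 genes are protein-coding in GENCODE release M21 (mouse assembly GRCm38). Gria1 lies at chr11:57011387-57330244 on the plus strand, Gria2 at chr3:80681450-80802835 on the minus strand, Gria3 at chrX:41400854-41678601 on the plus strand and Gria4 at chr9:4417896-4796234 on the minus strand. The TARP genes lie at chr15:77991748-78120028 (Cacng2, minus strand), chr7:122670492-122769393 (Cacng3, plus strand) and chr7:3390683-3415648 (Cacng8, plus strand). Cnih2 is the most compact of the 10 at chr19:5092868-5098521 on the minus strand, Cnih3 lies at chr1:181352628-181460641 on the plus strand and Gsg1l at chr7:125878420-126082411 on the minus strand. Of the 31-base words in their transcripts, at most 1.49% occurred in transcripts of another gene, except for Cacng8 with 2.64% and Cacng2 with 6.45%, most of the latter in the antisense gene A730060N03Rik. The library kit named in the labels does not mark strand, so reads of Cacng2 and its antisense partner cannot be told apart over that stretch.

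Sequences upstream of the transcription start are shown for 3 members whose levels differed between the ages and whose window is free of annotated exons. Each is the 250 bases before the start in the RefSeq promoter table for GRCm38.p6, which held 7 of the 10 members (not Gria1, Gria3 or Gsg1l), written 5′ to 3′ on the gene's own strand, with capitals marking the GC box (GGGCGG or its reverse complement CCGCCC). The positions are chr3:80802836-80803085 (minus strand) for Gria2, chr19:5098522-5098771 (minus strand) for Cnih2 and chr1:181352378-181352627 (plus strand) for Cnih3.
Gria2: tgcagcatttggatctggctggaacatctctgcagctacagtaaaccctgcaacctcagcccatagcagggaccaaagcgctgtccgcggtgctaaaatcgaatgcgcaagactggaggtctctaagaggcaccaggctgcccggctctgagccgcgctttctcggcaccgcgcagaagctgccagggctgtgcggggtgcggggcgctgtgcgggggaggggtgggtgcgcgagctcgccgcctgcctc
Cnih2: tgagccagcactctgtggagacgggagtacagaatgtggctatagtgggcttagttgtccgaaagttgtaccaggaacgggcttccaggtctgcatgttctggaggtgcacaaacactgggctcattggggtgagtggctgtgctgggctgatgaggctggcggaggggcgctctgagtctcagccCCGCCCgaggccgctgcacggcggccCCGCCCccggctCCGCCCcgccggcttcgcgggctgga
Cnih3: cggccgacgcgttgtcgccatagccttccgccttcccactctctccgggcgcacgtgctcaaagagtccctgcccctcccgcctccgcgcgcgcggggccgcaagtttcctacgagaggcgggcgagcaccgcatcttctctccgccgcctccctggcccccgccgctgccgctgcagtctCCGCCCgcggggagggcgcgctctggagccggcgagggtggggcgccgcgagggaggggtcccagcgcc
These windows had a GC content of 64.8% for Gria2, 65.6% for Cnih2 and 76% for Cnih3, against a median of 52% over 27025 promoters of the same length. Of the windows not shown, those of Gria4 (58.8%), Cacng2 (62%) and Cacng3 (56.8%) also lay above this median and that of Cacng8 (48%) below it. The Cnih2 window held 3 GC boxes and the Cnih3 window 1, whereas the Gria2 window held none, and 32.9% of all promoters held at least 1. The TATA box letters TATAAA, found in 13% of all promoters on either strand, and the cyclic AMP response element TGACGTCA, found in 1.62%, were in none of the 3. These matches are letters in a window and were not tested as binding sites.

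The normalized counts of the 10 genes in each library were examined first for how much the receptor genes differ in abundance. A longer transcript yields more reads, so abundances were compared between genes only as normalized counts per kb of merged exons, averaged over the 12 libraries. The paper's methods state that counts were adjusted for gene size, and whether the deposited values include this is unknown. If they do, the levels and shares per kb correct for length a second time. Cnih2 had the highest level per kb at 4293, with a range over libraries of 3318 to 6360, followed by Gria1 at 1925 (1787 to 2032). Per kb of merged exons, the places of Gria2 and Cacng3 depended on the age. At P25 Cacng3 ranged from 986 to 1076 per kb over the 6 libraries and Gria2 from 811 to 953, so Cacng3 was the higher, whereas at P60 Gria2 ranged from 1147 to 1339 and Cacng3 from 868 to 1027, so Gria2 was. Cnih3 (777 over all 12 libraries) ranged from 725 to 1054 at P25, which overlapped with Gria2, Cacng3 and Cacng8 but was above Gria3, and from 689 to 764 at P60, which overlapped with Gria3 and Cacng8. Gria3 (708) and Cacng8 (700) overlapped with each other at both ages, and Gsg1l (616) overlapped with both at P25 but was below both at P60. Gria4 at 525 and Cacng2 at 515 per kb were the lowest and overlapped with each other at both ages. With the longest coding transcript as the length, Gria3 moved from the sixth to the fourth place with 1345 per kb and Gria2 rose to 1591, as the merged exons of these genes (15548 bases for Gria2 and 9859 for Gria3) are much longer than that transcript (10371 and 5192 bases). On the mean over all libraries, Cnih2, Gria1 and Gria2 led with either length. With the longest coding transcript, however, the lowest Gria2 library (1215 per kb) was above the highest Cacng3 library (1076) at either age, so the change of order between the ages held only for merged exons.

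**Figure D1:**
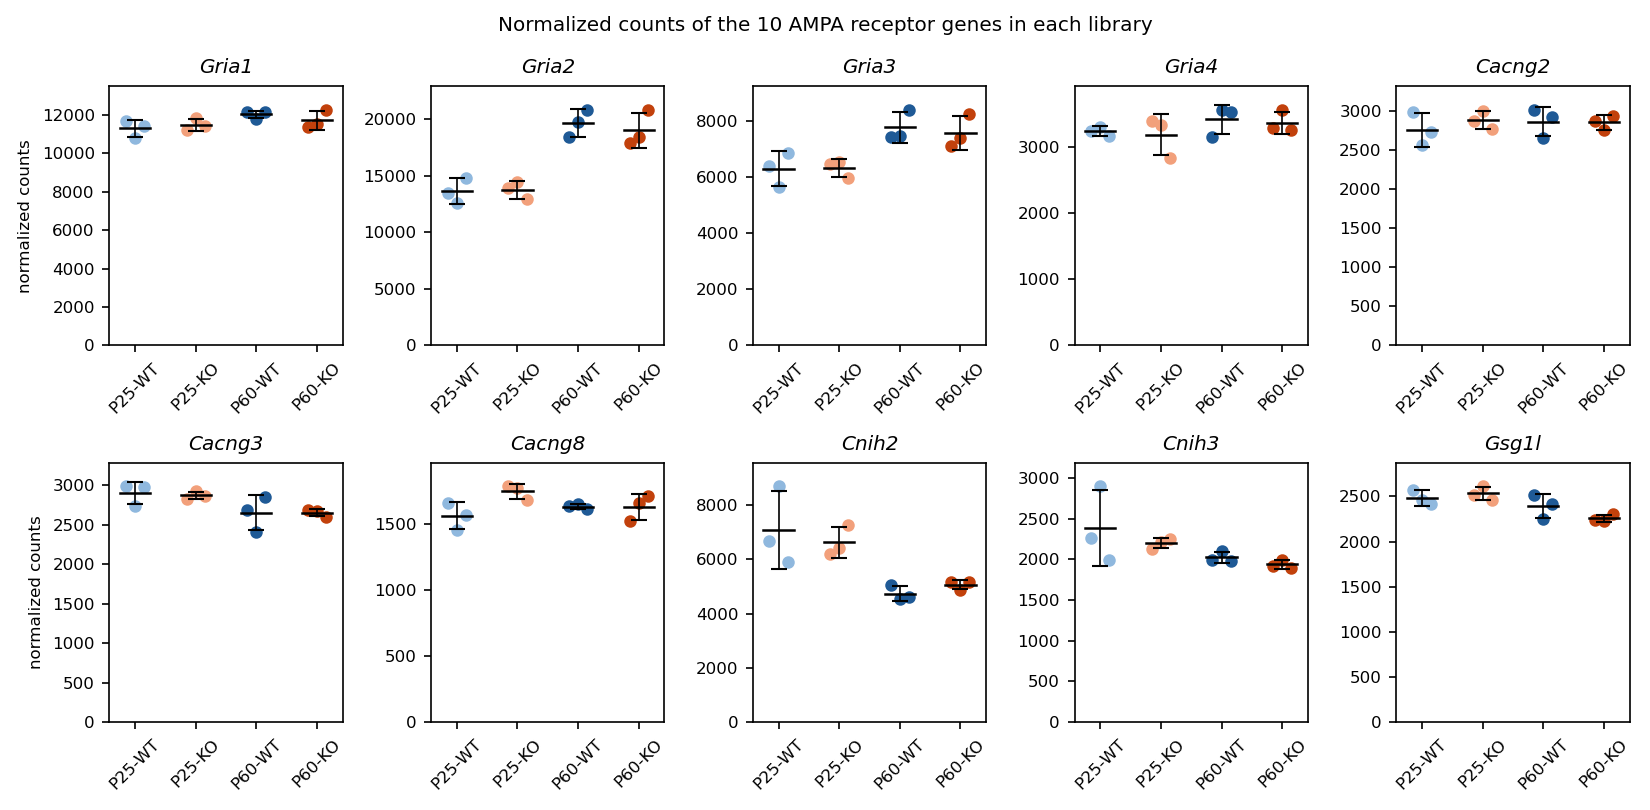
Normalized counts of the 10 AMPA receptor genes, 1 panel per gene with its own vertical axis starting at 0; points are libraries, horizontal bars group means and whiskers 1 SD (n = 3). The P60 points of Gria2 lie above all its P25 points and those of Cnih2 below all its P25 points, while WT and KO of the same age lie side by side.

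The first comparison asked whether loss of Shank3 exons went with a different level of the receptor genes at either age. None of the 10 genes was called between KO and WT at P25 or at P60, and none was called in the genotype by age interaction. The background in which this stands was itself nearly empty, as 1 of 17515 genes was called at P25 (0.00571%) and 1 of 17610 at P60 (0.00568%), Shank3 in both cases, and 0 of 17594 genes (0%) in the interaction. At an unadjusted p under 0.05 there were 0 of 10 members in each of the 3 fits, beside 238 of all genes tested at P25, 440 at P60 and 288 in the interaction, so a count of 0 among so few genes does not set the members apart.

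Among the pore-forming subunits, the estimates sat close to 0 with intervals that bound the size of any difference. Gria1 encodes the subunit most closely tied to activity-dependent insertion, and it had normalized counts of 11689, 10800 and 11406 in P25-WT, 11199, 11829 and 11410 in P25-KO, 12133, 11816 and 12133 in P60-WT, and 11366, 11519 and 12280 in P60-KO. The genotypes overlapped at both ages, with a KO minus WT log2 fold change of 0.02 (95% confidence interval -0.12 to 0.17) at P25 and -0.04 (-0.14 to 0.06) at P60. For Gria2 the same differences were 0.01 (-0.17 to 0.19) and -0.05 (-0.20 to 0.10), and for Gria3 they were 0.01 (-0.19 to 0.20) and -0.04 (-0.19 to 0.12). Gria4 is a subunit found in interneurons among other cells. It had normalized counts of 3254, 3315 and 3167 in P25-WT, 3401, 3341 and 2839 in P25-KO, 3161, 3572 and 3531 in P60-WT, and 3294, 3560 and 3261 in P60-KO. The 4 groups overlapped, and the genotypes differed by -0.03 (-0.22 to 0.17) at P25 and -0.02 (-0.16 to 0.12) at P60.

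Of the auxiliary genes, Cacng8, whose TARP is abundant in the hippocampus, was the one member whose KO and WT libraries did not overlap at P25. Its normalized counts were 1658, 1455 and 1568 in P25-WT and 1784, 1773 and 1680 in P25-KO, so the lowest KO library stood just above the highest WT library. The log2 fold change was 0.16 ± 0.08 (95% confidence interval -0.02 to 0.35), with an unadjusted limma p of 0.0732 and an adjusted p of 1. At P60 its libraries overlapped, with 1630, 1647 and 1607 in P60-WT and 1518, 1655 and 1711 in P60-KO. Groups that do not overlap were found for 4.76% of all genes at P25 and 7.79% at P60, beside 1 of 10 members at P25 and 0 of 10 at P60. Without P25-WT replicate 2, which has the lowest Cacng8 value of its group, the P25 difference was 0.11.

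The other auxiliary genes gave KO minus WT values of the same small size. Cacng2 had normalized counts of 2987, 2558 and 2732 in P25-WT, 2870, 3002 and 2769 in P25-KO, 3017, 2653 and 2923 in P60-WT, and 2877, 2751 and 2936 in P60-KO. These groups overlapped, with KO minus WT differences of 0.06 (95% confidence interval -0.12 to 0.25) at P25 and 0.00 (-0.14 to 0.13) at P60. Cacng3 differed by -0.02 (-0.17 to 0.14) and 0.00 (-0.14 to 0.15), and Gsg1l by 0.03 (-0.13 to 0.19) and -0.09 (-0.21 to 0.04). The cornichons had the widest intervals at P25, with -0.08 (-0.39 to 0.22) for Cnih2 and -0.10 (-0.39 to 0.18) for Cnih3, and narrower ones at P60, with 0.10 (-0.03 to 0.22) and -0.06 (-0.18 to 0.06). Their spread at P25 came with P25-WT replicate 2, the library with the high ribosomal protein sum, which also had the highest Cnih2 and Cnih3 values of all. Across the 10 members the median KO minus WT difference was 0.01 at P25 and -0.03 at P60, beside medians of -0.01 and 0.00 over all genes tested.

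**Figure D2:**
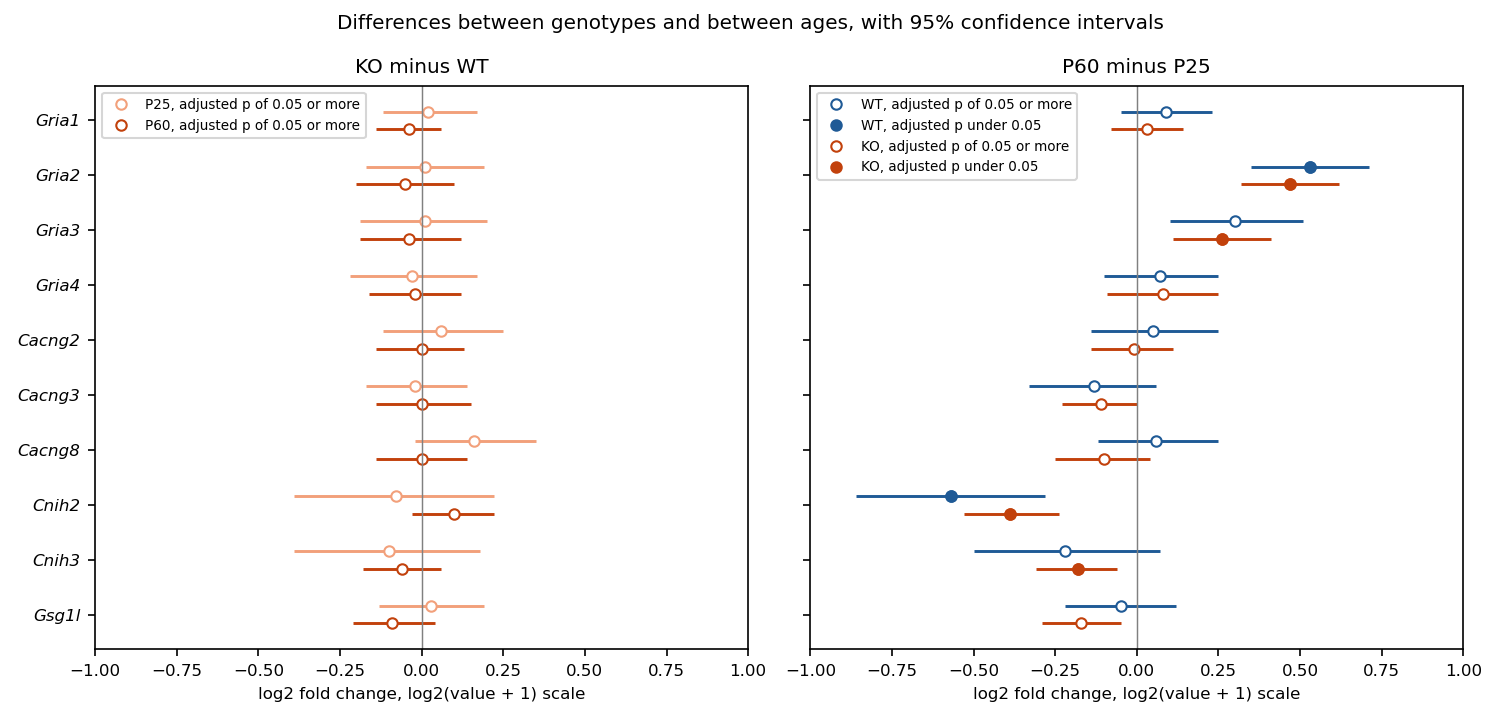
Log2 fold changes of the 10 genes, KO minus WT at each age (left) and P60 minus P25 in each genotype (right); bars are 95% confidence intervals from limma and filled points have an adjusted p under 0.05. No filled point appears on the left, and on the right Gria2 is filled at 0.53 and 0.47 and Cnih2 at -0.57 and -0.39.

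The second comparison asked how the receptor genes differ between the juvenile and the adult forebrain, within each genotype and over both. Gria2 was higher at P60 and Cnih2 lower in WT, in KO and over both genotypes together. Over both genotypes, Gria3 was also higher, and Cnih3 and Cacng3 were also lower. In WT, 1 of 10 members was called higher and 1 lower, against 3.66% and 4.99% of all genes, and in KO 2 were higher and 2 lower, against 9.37% and 11.3%. Over both genotypes 2 of 10 were higher and 3 lower, where 18.3% of all genes were higher and 19.3% lower, so the count of members called is close to that of the table as a whole. In WT all P60 libraries lay above all P25 libraries for 3 members and below for 1, against 3099 and 3236 of 17581 genes. In KO this held for 2 and 4 members, against 3320 and 3608 of 17596 genes. Over both genotypes it held for 2 and 1, against 1547 and 1904 of 17594. Ages that do not overlap were thus common and do not by themselves set a member apart. In bulk tissue, fewer cells of a type and less RNA per cell cannot be told apart.

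Gria2 showed the largest increase of the 10. Its normalized counts were 13495, 12605 and 14818 in P25-WT and 18404, 19711 and 20818 in P60-WT, and 13878, 14398 and 12903 in P25-KO and 17832, 18435 and 20766 in P60-KO. Every P60 library was above every P25 library in both genotypes, with group means of 13639 ± 1113 and 19644 ± 1208 in WT (SD, n = 3) and 13726 ± 759 and 19011 ± 1550 in KO. The log2 fold change was 0.53 ± 0.08 in WT (limma adjusted p = 0.00915), 0.47 ± 0.07 in KO (limma adjusted p = 0.00183) and 0.50 ± 0.05 over both genotypes (limma adjusted p = 1.02e-05), an increase of 41.2%. Without P60-WT replicate 3, which had the highest WT value, the WT difference was 0.48 and was no longer called (limma adjusted p = 0.0682). It was also not called in WT without the intensity trend (adjusted p = 0.0666). With the trend on transcript length and GC content removed, the value was 0.20 in WT, again not called (limma adjusted p = 0.0542), and 0.21 over both genotypes.

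Gria3, whose product pairs with GluA2 in many cortical receptors, moved in the same direction by a smaller amount. The libraries had Gria3 normalized counts of 6376, 5649 and 6861 in P25-WT, 7412, 7472 and 8395 in P60-WT, 6453, 6523 and 5958 in P25-KO, and 7093, 7374 and 8240 in P60-KO. All P60 libraries were above all P25 libraries, although the margin was narrow. The log2 fold change was 0.28 ± 0.06 over both genotypes (limma adjusted p = 0.00134), an increase of 21.6%. It was 0.26 ± 0.07 in KO (limma adjusted p = 0.0207), where the call was lost without P25-KO replicate 3 (adjusted p = 0.0694) or P60-KO replicate 3 (adjusted p = 0.0607), and 0.30 ± 0.09 in WT (limma adjusted p = 0.0648). The KO call was also lost with a replicate block (adjusted p = 0.0564), without the intensity trend (adjusted p = 0.0959) and with the trend on transcript length and GC content removed (adjusted p = 0.264). Conversely, Gria3 was called higher in WT with libraries brought to a common total (0.35, adjusted p = 0.0454), with all 12 libraries in 1 fit (adjusted p = 0.0207), with a replicate block (adjusted p = 0.0389) and without P25-WT replicate 3 (0.37, adjusted p = 0.0328).

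Gria1 and Gria4 did not pass the test in any age comparison. Gria1 had a P60 minus P25 log2 fold change of 0.06 over both genotypes (95% confidence interval -0.02 to 0.14, limma adjusted p = 0.203), and Gria4 one of 0.08 (-0.03 to 0.19, limma adjusted p = 0.253). With libraries brought to a common total instead, Gria1 was called higher at 0.10 (limma adjusted p = 0.0410). The intervals of both genes leave out an increase of the size seen for Gria2.

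Because the subunits compete for places in the tetramer, the make-up of the GluA messages was also expressed as the share of each gene in the sum of the 4, with levels per kb. Per kb of merged exons, Gria1 had the largest share in every library, and it was 48.0% ± 1.08 (SD, n = 3) in P25-WT, 48.4% ± 1.53 in P25-KO, 43.5% ± 1.54 in P60-WT and 43.5% ± 0.526 in P60-KO. The share of Gria2 was 22.5% ± 0.974, 22.5% ± 0.401, 27.5% ± 0.806 and 27.4% ± 0.810 in the same order of groups. Gria3 took 16.3% in both P25 groups and 17.2% in both P60 groups, and Gria4 went from 13.2% and 12.9% to 11.8% and 12.0%. The P25 and P60 libraries thus did not overlap for Gria1 and Gria2, while WT and KO of the same age overlapped for all 4 subunits. With the longest coding transcript as the length the shares shifted in level but not in order of the ages, for example from 25.5% to 30.6% for Gria2 in WT. Gria1 had the largest share with either length, but Gria2 had the higher normalized count in every library. The order of Gria1 and Gria2 thus rests on the lengths used, and which transcripts were expressed was not tested.

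The contrast between the ages also appears in ratios within a library, where a factor common to all genes of that library cancels. A correction that differs by gene and library would not cancel, and whether the deposited values carry one is unknown. The ratio of Gria1 to Gria2 normalized counts was 0.866, 0.857 and 0.770 in P25-WT and 0.807, 0.822 and 0.884 in P25-KO, and 0.659, 0.599 and 0.583 in P60-WT and 0.637, 0.625 and 0.591 in P60-KO. All 6 adult values were below all 6 juvenile values. The ratio of Gria3 to Gria2 was also lower at P60, at 0.379 to 0.403 against 0.448 to 0.472, so Gria2 rose more than Gria3 in these libraries. The ratio of Gria4 to Gria2 ran from 0.214 to 0.263 at P25 and from 0.157 to 0.193 at P60.

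**Figure D3:**
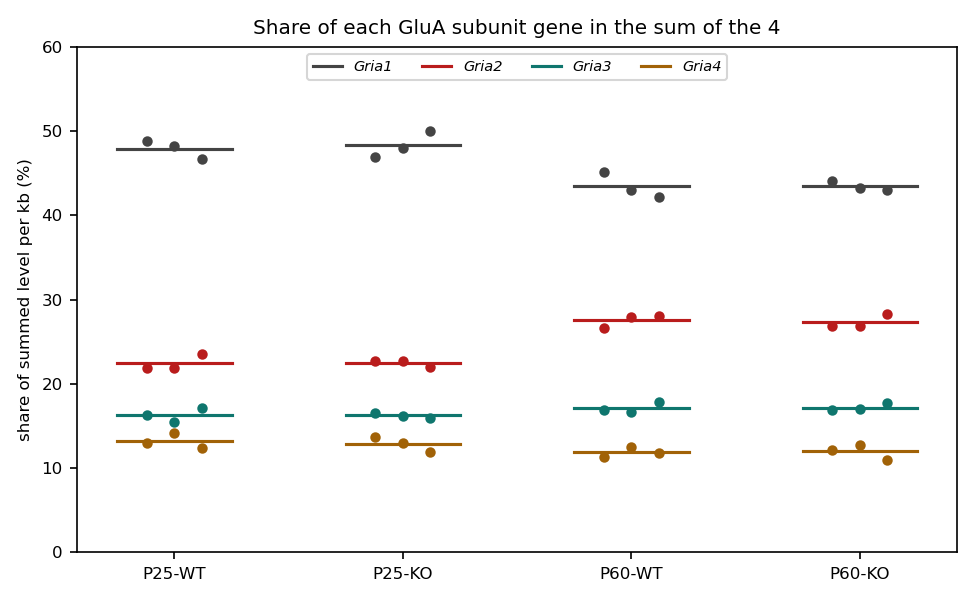
Share of each GluA subunit gene in the summed level per kb of the 4, in percent, by group; points are libraries and lines group means (n = 3). Gria2 sits at 22.5% in both P25 groups and at 27.5% and 27.4% in the P60 groups, and Gria1 goes from about 48% to 43.5%.

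On the auxiliary side, the largest decrease was that of Cnih2. Its normalized counts were 6672, 8706 and 5908 in P25-WT and 5046, 4543 and 4600 in P60-WT, and 6189, 6429 and 7262 in P25-KO and 5149, 4865 and 5164 in P60-KO. The adult libraries were all below the juvenile ones, and P25-WT replicate 2 was far above the rest. The log2 fold change was -0.57 ± 0.13 in WT (limma adjusted p = 0.0326), -0.39 ± 0.07 in KO (limma adjusted p = 0.00376) and -0.48 ± 0.08 over both genotypes (limma adjusted p = 3.76e-04), where the level fell by 28.2%. Without P25-WT replicate 2 the WT difference was -0.41 with a smaller spread (limma adjusted p = 0.00714), and it was not called without P25-WT replicate 1 or P60-WT replicate 1, 2 or 3 (adjusted p = 0.0840, 0.0896, 0.0987 and 0.141), nor without the intensity trend (adjusted p = 0.106). With the trend on transcript length and GC content removed, the value was -0.33 in WT, also not called (limma adjusted p = 0.0692), and -0.27 over both genotypes.

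Cnih3 was lower at P60 by less, and its call was less secure. For Cnih3 the normalized counts were 2259, 2899 and 1996 in P25-WT, 1992, 2103 and 1980 in P60-WT, 2127, 2210 and 2254 in P25-KO, and 1921, 1996 and 1897 in P60-KO. In KO the ages were separated, whereas in WT they overlapped. The log2 fold change was -0.20 ± 0.07 over both genotypes (limma adjusted p = 0.0356), -0.18 ± 0.06 in KO (limma adjusted p = 0.0464) and -0.22 ± 0.13 in WT (limma adjusted p = 0.285). The KO call was lost whichever of the 6 libraries was left out (adjusted p from 0.0560 to 0.124) and with a replicate block (adjusted p = 0.104), and the call over both genotypes was lost without P25-KO replicate 2 or 3, P60-KO replicate 1 or 3 or P60-WT replicate 1 or 3 (adjusted p from 0.0567 to 0.0719). The WT value fell to -0.07 without P25-WT replicate 2. The ratio of Cnih3 to Cnih2 was 0.310 to 0.344 at P25 and 0.367 to 0.463 at P60.

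Of the 3 TARP genes among the members only Cacng3 was called, and by a narrow margin. Its normalized counts were 2987, 2738 and 2980 in P25-WT, 2684, 2412 and 2852 in P60-WT, 2823, 2919 and 2865 in P25-KO, and 2690, 2666 and 2599 in P60-KO. The ages overlapped in WT and were separated in KO. The log2 fold change over both genotypes was -0.12 ± 0.05 (limma adjusted p = 0.0439), so the level fell by 8.21%, and the call was lost in 10 of the 12 fits that left out 1 library, all but those without P25-WT replicate 2 or P60-WT replicate 3 (adjusted p up to 0.102). Neither genotype alone gave a call, at -0.13 (adjusted p = 0.334) in WT and -0.11 (adjusted p = 0.145) in KO.

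The remaining auxiliary genes did not pass the test with all libraries. Cacng2 had a P60 minus P25 log2 fold change of 0.02 (95% confidence interval -0.08 to 0.13) and Cacng8 one of -0.02 (-0.13 to 0.09) over both genotypes. Gsg1l had normalized counts of 2575, 2460 and 2413 in P25-WT, 2519, 2254 and 2417 in P60-WT, 2521, 2615 and 2466 in P25-KO, and 2235, 2232 and 2306 in P60-KO. Its ages overlapped in WT and were separated in KO, and its values were -0.05 in WT (adjusted p = 0.690), -0.17 in KO (adjusted p = 0.0539) and -0.11 over both genotypes (adjusted p = 0.0600). It was called lower over both genotypes without P25-WT replicate 2 (adjusted p = 0.0357), P25-WT replicate 3 (adjusted p = 0.0421) or P60-WT replicate 1 (adjusted p = 0.0331), and in KO with a minimum mean of 50 (adjusted p = 0.0457). The difference between the KO and the WT value, -0.11 for Gsg1l, was not called in the interaction fit (95% confidence interval -0.30 to 0.07).

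Across the whole table the age differences ran along transcript length. Of the members, Gria2 had the longest transcript and the largest increase, and Cnih2 the shortest transcript and the largest decrease. The order between them was not strict. Over both genotypes Cacng8 (1897 bases) stood at -0.02, and Gria3 (5206 bases) at 0.28 was above Gria1 (5546 bases) at 0.06. The relation was not tested over the members. Over both genotypes, the median P60 minus P25 log2 fold change of all genes was -0.15 for genes whose longest transcript has up to 1000 bases, -0.10 for 1000 to 2000 bases, -0.01 for 2000 to 4000, 0.06 for 4000 to 8000 and 0.17 above 8000 bases, where 46.4% of genes were called higher and 8.29% lower. Gria2, with a longest transcript of 10371 bases and a GC content of 36.8%, lies at one end, and Cnih2, with 1343 bases and 62.3%, lies near the other. In an alternative chosen after seeing the data, the dependence of each library's values on transcript length and GC content was taken out, and this left Gria2 at 0.21 ± 0.03 (limma adjusted p = 2.26e-04) and Cnih2 at -0.27 ± 0.06 (limma adjusted p = 0.00318) over both genotypes. Gria3 then stood at 0.10 (adjusted p = 0.0534), Cnih3 at -0.13 (adjusted p = 0.129) and Cacng3 at -0.03 (adjusted p = 0.688), so 2 of the 5 calls remained. Within WT neither Gria2 (0.20, adjusted p = 0.0542) nor Cnih2 (-0.33, adjusted p = 0.0692) was called in that fit, and within KO both were (0.21, adjusted p = 0.0107, and -0.22, adjusted p = 0.0224). The within-library ratios and shares given above carry the same length dependence, and whether it is a property of the libraries or of the tissue was not tested.

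**Figure D4:**
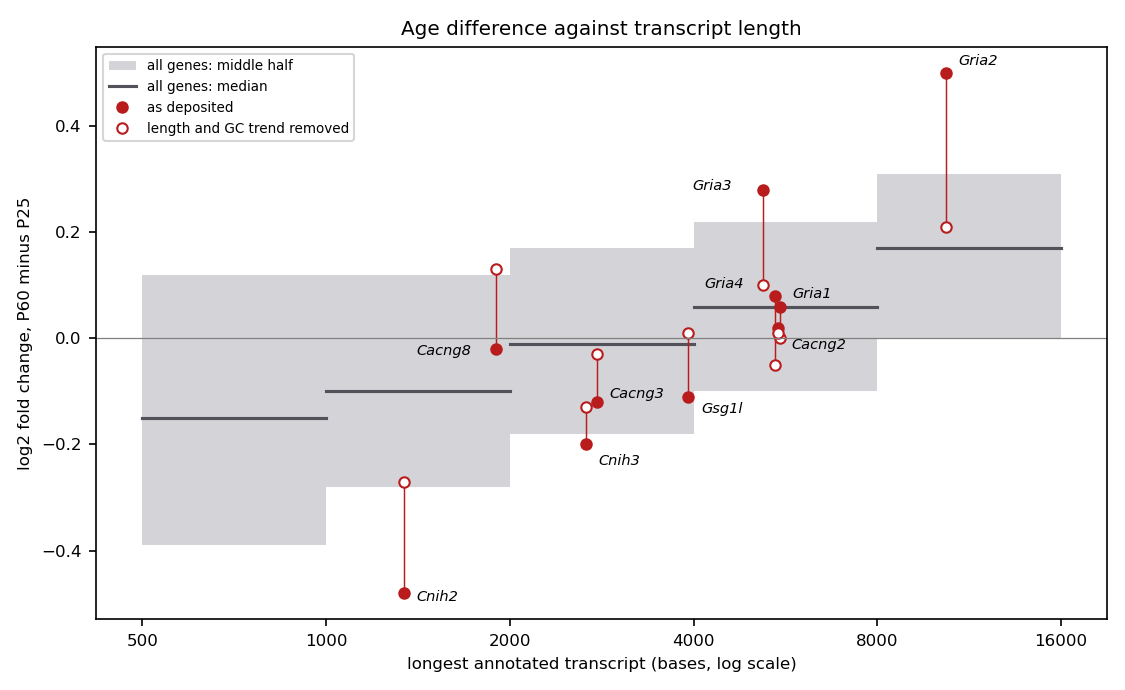
P60 minus P25 log2 fold change over both genotypes against the length of the longest annotated transcript (log axis; the outer bins hold all shorter or longer genes); filled points are the 10 genes as deposited, open points the same genes with the length and GC trend removed, and grey bands and lines the middle part (quartiles) and median of all genes in a length bin. Gria2 goes from 0.50 to 0.21 and Cnih2 from -0.48 to -0.27, and the median of all genes rises from -0.15 in the shortest bin to 0.17 in the longest.

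Scaling also bears on the balance of directions. When all libraries were brought to 1 common total, genes called higher and lower numbered 991 and 681 in WT (644 and 877 as deposited), 2108 and 1620 in KO (1649 and 1992 as deposited), and 4038 and 2730 over both genotypes (3219 and 3397 as deposited). Gria1, Gria2 and Gria3 were then called higher and Cnih2 lower over both genotypes, while Cnih3 (-0.16, adjusted p = 0.0793) and Cacng3 (-0.08, adjusted p = 0.178) were no longer called.

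Cell type markers also differed between the ages, and their part in the results above was not tested. Over both genotypes, 8 of 8 oligodendrocyte markers and 8 of 8 oligodendrocyte precursor markers were lower at P60, and the summed normalized counts of the former ran from 400102 to 517899 over the P25 libraries and from 194783 to 222470 over the P60 libraries. Precursor markers summed to 26493 to 30385 at P25 and 17976 to 19853 at P60, and precursors are known to carry AMPA receptors. Of the markers of glutamatergic neurons, 1 of 8 was higher and 4 lower, with sums of 156167 to 165307 in P25-WT and 135198 to 140659 in P60-WT. Of the astrocyte markers 6 of 8 were lower. Of the GABA interneuron markers 2 were higher and 3 lower, of the striatal projection neuron markers 1 was lower, of the microglial markers 2 were lower, and 1 endothelial and 2 cerebellar granule cell markers were higher, each out of 8. The cerebellar genes called were Etv1 and Neurod1, whereas Gabra6 (2.28, adjusted p = 0.147), Cbln3 (1.39, adjusted p = 0.203) and Fat2 (0.83, adjusted p = 0.391) were not called, and their high values lay in P60-WT replicate 2 and P60-KO replicate 1. Without both of these libraries Gria2 (0.52, adjusted p = 1.15e-04), Gria3 (0.32, adjusted p = 0.00298) and Cnih2 (-0.47, adjusted p = 0.00294) were called over both genotypes, and Cnih3 (-0.21, adjusted p = 0.0749) and Cacng3 (-0.10, adjusted p = 0.140) were not. In WT without P60-WT replicate 2, Gria2 was called (0.52, adjusted p = 0.0463) and Cnih2 was not (-0.54, adjusted p = 0.0987), and in KO without P60-KO replicate 1, Gria2, Gria3 and Cnih2 were called and Cnih3 was not (adjusted p = 0.118). Without P25-WT replicate 2, the library with the high ribosomal protein sum, all 5 calls over both genotypes were made, with Gria2 at 0.47 (adjusted p = 6.23e-06), Gria3 at 0.25 (adjusted p = 0.00113), Cnih2 at -0.40 (adjusted p = 2.88e-05) and Cacng3 at -0.14 (adjusted p = 0.0171), while Cnih3 moved from -0.20 to -0.13 (adjusted p = 0.0285). Gabra6 was listed at 0 in 5 libraries, and no other marker was at 0 in any library.

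Other genes of the AMPA receptor pathway were taken from a pair of lists of 18, and all 36 were tested. The first list holds further auxiliary and biogenesis proteins. Over both genotypes 5 of 18 were higher at P60 and 8 lower, with a median log2 fold change of -0.06, beside 0.00 over all genes tested, of which 18.3% were higher and 19.3% lower. Frrs1l, which acts in receptor assembly in the endoplasmic reticulum, was higher by 0.28 ± 0.04 (limma adjusted p = 2.46e-04), and so were the CKAMP family gene Shisa9 (0.17, adjusted p = 0.00906) and Shisa7 (0.23, adjusted p = 0.0313), while Olfm2, an olfactomedin found with AMPA receptors, was lower by -0.51 ± 0.04 (limma adjusted p = 4.99e-07). Of the other TARP genes, Cacng4 was lower by -0.36 ± 0.06 (limma adjusted p = 5.92e-04) and Cacng7 by -0.20 ± 0.05 (limma adjusted p = 0.00287). In WT alone 2 were higher, Shisa6 at 0.54 and Frrs1l at 0.32, and 1 lower, Olfm2 at -0.55. In KO alone 2 were higher, Shisa9 at 0.21 and Frrs1l at 0.25, and 2 lower, Olfm2 at -0.47 and Cacng4 at -0.45.

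The second list holds proteins of receptor trafficking, anchoring and RNA editing. Over both genotypes 4 of 18 were higher and 4 lower, with a median of 0.01, beside the same shares of 18.3% and 19.3% over all genes. Dlg4, which encodes PSD-95, the anchor of the TARPs, was lower by -0.36 ± 0.04 (limma adjusted p = 8.23e-06). The list holds 3 genes of the neuronal pentraxins, which gather AMPA receptors from outside the cell. Nptx1 was higher by 0.38 ± 0.06 (limma adjusted p = 3.64e-04), whereas Nptx2 was lower by -0.29 ± 0.09 (limma adjusted p = 0.0256) and the receptor Nptxr by -0.32 ± 0.04 (limma adjusted p = 5.96e-05), and the differences between the 3 were not tested. Nptx2 was named after its values were seen. Adarb1, whose enzyme edits the Gria2 message at the site that sets calcium permeability, was higher by 0.19 ± 0.04 (limma adjusted p = 0.00123), and Snx27, a sorting nexin that returns receptors to the surface, by 0.22 ± 0.05 (limma adjusted p = 0.00196). Ap2a1, a subunit of the endocytic adaptor, was lower by -0.15 ± 0.04 (limma adjusted p = 0.0143). In WT alone Nptx1 (0.40) was higher and Dlg4 (-0.41) and Nptxr (-0.28) lower, and in KO alone Nptx1 (0.36) and Adarb1 (0.21) were higher and Nptxr (-0.36), Nptx2 (-0.36), Dlg4 (-0.31) and Ap2a1 (-0.20) lower. None of the 36 genes was called between the genotypes at either age or in the interaction (limma), and 0 had an unadjusted p under 0.05 in these fits, which at the shares of all genes given above says little about so few genes. The KO minus WT differences of the first list had a median of 0.00 (-0.14 to 0.21) at P25 and 0.01 (-0.16 to 0.09) at P60, and those of the second a median of 0.04 (-0.24 to 0.20) and 0.01 (-0.05 to 0.09). With the length and GC trend removed, 11 of the 36 were higher and 9 lower over both genotypes, against 9 and 12 as deposited. Leaving out 1 library at a time, the number of the 36 called ran from 1 to 10 in WT (6 with all libraries), from 6 to 12 in KO (10 with all) and from 15 to 20 over both genotypes (21 with all). In WT it was 1 without P25-WT replicate 1 or P60-WT replicate 3, 2 without P60-WT replicate 1 or 2 and 10 without P25-WT replicate 2, and in KO it was 6 without P25-KO replicate 1. Without the intensity trend it was 1 in WT, 4 in KO and 13 over both genotypes, and with all 12 libraries in 1 fit it was 11 in WT and 8 in KO.

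**Figure D5:**
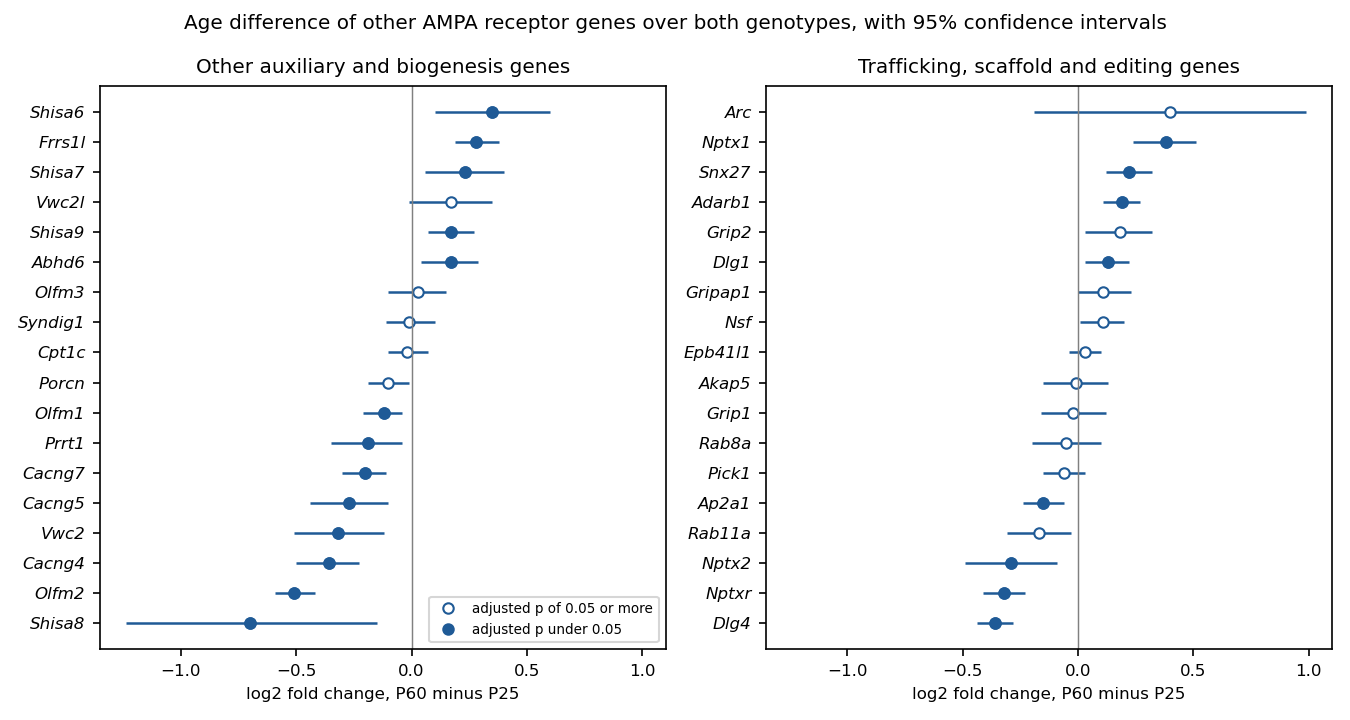
P60 minus P25 log2 fold change over both genotypes of 18 further auxiliary and biogenesis genes (left) and 18 trafficking, scaffold and editing genes (right); bars are 95% confidence intervals from limma and filled points have an adjusted p under 0.05. Frrs1l at 0.28 and Nptx1 at 0.38 lie on the higher side, and Olfm2 at -0.51 and Dlg4 at -0.36 on the lower side.

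For each GluA subunit gene, the 3 genes with the most similar profile were sought by Pearson's r of log2 levels over the 12 libraries, among 12221 genes with a mean of at least 100. The libraries share their age and their quality, so r describes a common order of libraries and no more. Gria2 was closest to Dgki (r = 0.987), Hook1 (r = 0.985) and Wnk3 (r = 0.985), and Gria3 to Nedd4 (r = 0.991), Lnpep (r = 0.985) and Ranbp2 (r = 0.985). Gria1 was closest to Grin2b, an NMDA receptor subunit gene (r = 0.921), Lmo7 (r = 0.913) and Arhgap32 (r = 0.913). Gria4 had the weakest matches, with Sertad2 (r = 0.916), Zfp641 (r = 0.877) and Zfp202 (r = 0.870).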

How the data were processed

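RNA-seq libraries from the forebrain of 12 mice, 3 for each combination of genotype and age, were grouped by their titles. According to the study's methods and processing notes, the authors quantified transcripts with Salmon 1.1.0 with a GC bias correction, summarised them per gene with tximport and applied the normalization of DESeq2 (1.26.0 in the notes, a different release in the methods). The deposited table holds this signal on a count scale for 19268 genes. Because the values are not whole and did not resolve into reads, count models were not used, and the sequencing depth is unknown. Symbols, positions and lengths came from GENCODE M21 (19252 identifiers matched).

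Differences were tested with limma 3.58.1 in R 4.3.3 (intensity trend, two-sided) on log2(value + 1), for genes with a mean of at least 10, with Benjamini-Hochberg adjustment over all genes. Fold changes on this scale understate those of low genes. Genotypes were compared within an age and ages within a genotype (6 libraries each), and ages over both genotypes and the interaction were fitted to 12 libraries. The script was tested on simulated data. Named genes were all members, Shank3, from each pathway list the 3 called genes at most in either direction that had the lowest adjusted p, and the 3 closest profiles of each Gria gene. The members and lists were chosen with earlier results of these data known. Alternatives changed the pseudocount, filter, scaling, variance model, libraries, gene length or block, and a length and GC trend removal and the omission of both libraries with raised cerebellar markers were chosen after seeing the data.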

Additional observations from a re-analysis of the deposited data

Results flagged for a closer look

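Among the 6 P25 libraries, Cnih3 in P25-WT replicate 2 (2899 normalized counts) lay apart from the others, with a gap to the next library of 0.708 of the whole range, and chance flags about 1 in 20 such groups. The same library had the highest Cnih2 value (8706) and the highest summed ribosomal protein level (402944), and a connection between them was not tested.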

How the results depend on the processing

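Each of the 10 members' differences in the 6 comparisons was recomputed under the alternatives, which gave 1030 values, of which 910 kept their direction and their side of the threshold, 50 kept the direction but lost the call, 9 gained one and 61 changed sign. No member was called between the genotypes or in the interaction under any alternative run. Without the intensity trend, 0 genes were called between the genotypes at P25 and 0 at P60, 192 between the ages in WT and 1725 in KO, and members called between the ages numbered 0 in WT, 2 in KO and 3 over both genotypes. With all 12 libraries in 1 fit, 3439 genes were called in WT (1521 in the separate fit) and 2499 in KO (3641 in the separate fit), so the order of these counts turned, and Cnih3 was not called in KO (adjusted p = 0.257). Without P60-WT replicate 2 and P60-KO replicate 1, whose cerebellar markers were raised (chosen after seeing the data), 3 genes were called between the genotypes at P60 and 3 members between the ages over both genotypes. With the length and GC trend removed, 0 genes were called at P25, and 0 members in WT, 2 in KO and 2 over both genotypes. Leaving out 1 library at a time gave 0 to 8 genes between the genotypes at P25, 1 to 3 at P60 and 0 to 1 in the interaction. It gave 122 to 2403 genes and 0 to 3 members in WT, 2093 to 3230 genes and 2 to 3 members in KO, and 3 to 6 members over both genotypes.

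Labels share replicate numbers between groups, but same-numbered libraries did not deviate together (correlations of deviations from the group means from -0.07 to 0.17). With the number as a replicate block, 0 genes were called between the genotypes at P25, 2 members between the ages in KO, 3 in WT and 5 over both genotypes.

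The sign changes were among differences that were not called. With the length and GC trend removed, the KO minus WT value was 0.00 for Gria2 at P25, and at P60 it was 0.01 for Gria2, 0.01 for Cacng2 and -0.01 for Cacng3. The P60 minus P25 value was -0.06 for Gria4 and 0.07 for Gsg1l in WT, -0.02 for Gria1, -0.04 for Gria4 and 0.02 for Cacng8 in KO, and 0.00 for Gria1, -0.05 for Gria4, 0.13 for Cacng8 and 0.01 for Gsg1l over both genotypes, and the interaction was 0.01 for Gria2. With libraries brought to a common total, the P60 minus P25 value was 0.02 for Cacng2 in KO and 0.02 for Cacng8 over both genotypes, and the interaction was -0.01 for Gria4. Without P60-WT replicate 2 and P60-KO replicate 1, the KO minus WT value at P60 was 0.03 for Gria4, -0.07 for Cacng3 and 0.06 for Cacng8, the P60 minus P25 value over both genotypes was 0.00 for Cacng8, and the interaction was -0.06 for Cacng3. Leaving out 1 library at a time, the KO minus WT values at P25 ran from -0.01 to 0.05 for Gria1, -0.04 to 0.07 for Gria2, -0.07 to 0.07 for Gria3, -0.08 to 0.06 for Gria4, -0.06 to 0.01 for Cacng3, -0.21 to 0.07 for Cnih2 and -0.22 to 0.05 for Cnih3. At P60 they ran from -0.10 to 0.02 for Gria3, -0.08 to 0.01 for Gria4, -0.06 to 0.04 for Cacng2, -0.06 to 0.06 for Cacng3 and -0.04 to 0.05 for Cacng8. The P60 minus P25 values ran from 0.00 to 0.05 for Gria1, 0.00 to 0.13 for Gria4 and -0.04 to 0.02 for Cacng2 in KO, and from -0.01 to 0.04 for Cacng2 and -0.05 to 0.01 for Cacng8 over both genotypes. The interaction ran from -0.11 to 0.03 for Gria3, -0.08 to 0.06 for Gria4, -0.05 to 0.07 for Cacng3 and -0.11 to 0.16 for Cnih3. The causes were not tested. The depth behind each value is unknown, and 3 libraries per group limit the precision.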
